A study of Homo sapiens with 6 samples.

Results

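The integrin and laminin genes encode both sides of a contact: laminins are proteins of the basement membrane, and integrins are the receptors with which cells hold on to them. All entries whose symbol names an integrin alpha chain, an integrin beta chain or a laminin alpha, beta or gamma chain were taken, which gave 38 genes of the 53826 entries in each library. They comprise 18 integrin alpha, 8 integrin beta and 12 laminin genes. The rule reads symbols alone and no measured value, but it was set with earlier results of these data known.

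PK-1 cells and Panc-1 cells, long-established lines from human pancreatic ductal adenocarcinoma (PDAC), were each grown alone in culture. Of each line, 1 culture was the Control and the others received an antagonist of the retinoic acid receptor gamma for 24 h, which was LY2955303 (called RARγi-1) in 1 and MM11253 (called RARγi-2) in another. Each culture gave 1 mRNA library, 6 in all. The titles of the libraries were followed, because the treatment entry of both RARγi-2 libraries names RARγi-1. Neither the doses nor what the Control cells received is stated for the sequencing, so the inhibitors are set side by side and not compared with each other. The labels name no genetic change in either line. There is 1 library per condition, so replicate error is unknown, and no test was run and no p-value is given.

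Integrins are receptors made of 1 alpha and 1 beta chain that span the plasma membrane and couple the matrix outside to actin or keratin filaments inside. ITGB1 is the common beta chain and pairs with many alpha chains, whereas ITGB4 pairs only with ITGA6 and anchors keratin filaments at hemidesmosomes. Laminins are trimers of 1 alpha, 1 beta and 1 gamma chain. LAMA3 and LAMB3 are chains of the laminin beneath hemidesmosomes of epithelia, and LAMA5 with LAMB1 or LAMB2 and LAMC1 forms the widespread laminins of other basement membranes. In pancreatic cancer both families are known for their part in the adhesion and migration of tumour cells.

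Levels are given as TPM, transcript abundances that are scaled for transcript length and to the same total in every library, and can be set against each other between genes. The deposited values stop at 1 TPM, called the floor here, so a gene at the floor had 1 TPM or less and any change into or out of the floor is a limit. Fold changes are log2 of (TPM + 1) in 1 library over (TPM + 1) in the other, and a gene was counted as changed past 2-fold at 1 or more on this scale in either direction. As a yardstick in place of replicates, the spread was taken from the differences between the RARγi-2 and RARγi-1 libraries of a line over entries of at least 5 TPM, as their median absolute deviation scaled like an SD. It was 0.41 in PK-1 (11268 entries) and 0.32 in Panc-1 (11056 entries) on the log2 scale, and it also holds real differences between the inhibitors. Where 3 values of a line are given together, they stand in the order Control, RARγi-1 and RARγi-2. The depth is unknown, because TPM keeps no read number.

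The libraries had between 13149 and 13652 entries above the floor. The markers KRT7, KRT8, KRT18, KRT19, EPCAM, CDH1 and KRT13 were all above the floor in PK-1, and CDH1 and KRT13 were at the floor in Panc-1. Their summed level was 25955 TPM in PK-1 Control, 14162 TPM with RARγi-1 and 14485 with RARγi-2, against 8418, 1783 and 1484 TPM in Panc-1. Most of this sum came from the keratins. Each keratin was below the Control in both treated PK-1 libraries, KRT13 at 3457, 655 and 358 TPM. For KRT19 with RARγi-1 the log2 fold change was only -0.11, within the spread. CDH1 went the other way in PK-1, at 170, 270 and 385 TPM, and EPCAM was within the spread, at 578, 552 and 497 TPM. The summed level of 5 mesenchymal genes was 88.3, 137 and 159 TPM in PK-1 and 6307, 4067 and 3975 TPM in Panc-1, nearly all of the latter from VIM. The genes did not go together. In PK-1, VIM was at 41.7, 92.1 and 140 TPM, while SNAI2 was at 46.7, 45.1 and 18.7 TPM. SNAI2 was at 1.45 TPM or less in Panc-1, CDH2 and ZEB1 were above the floor in Panc-1 alone, and ZEB2 was at the floor throughout. Of 7 fibroblast, 4 endothelial and 5 leukocyte markers, DCN, LUM, PDGFRA, PECAM1, CDH5, PTPRC and CD3E were at the floor in all 6 libraries; COL1A1 lay between 2.10 and 52.4 TPM and CD68 between 19.8 and 276 TPM. The part of these markers in the results below was not tested. In bulk RNA, fewer cells of a kind and less RNA per cell cannot be told apart.

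Of the 38 genes, 26 were above the floor in at least 1 library, and 20 of these reached 10 TPM. The 12 genes at the floor in all 6 libraries were ITGA4, ITGA8, ITGA9, ITGA11, ITGAD, ITGAL, ITGAX, ITGB7, ITGB8, LAMA1, LAMA2 and LAMB4, among them the leukocyte chains ITGAL, ITGAX and ITGAD. Another 6 genes (ITGA1, ITGA2B, ITGA7, ITGA10, ITGAM and ITGB2) were above the floor but below 10 TPM, with values up to 8.49 TPM. In all 6 libraries 13 genes were above the floor. The genes found above the floor in PK-1 libraries alone were ITGA1, ITGB6 and LAMA3, and 7 genes were above the floor in Panc-1 libraries alone, which included LAMB2, LAMC3 and ITGB2. ITGB1 had the highest level of the 38 genes in 5 libraries, each time followed by ITGA3, and in PK-1 with RARγi-2 LAMB3 was the highest, ahead of ITGB1.

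**Figure D1:**
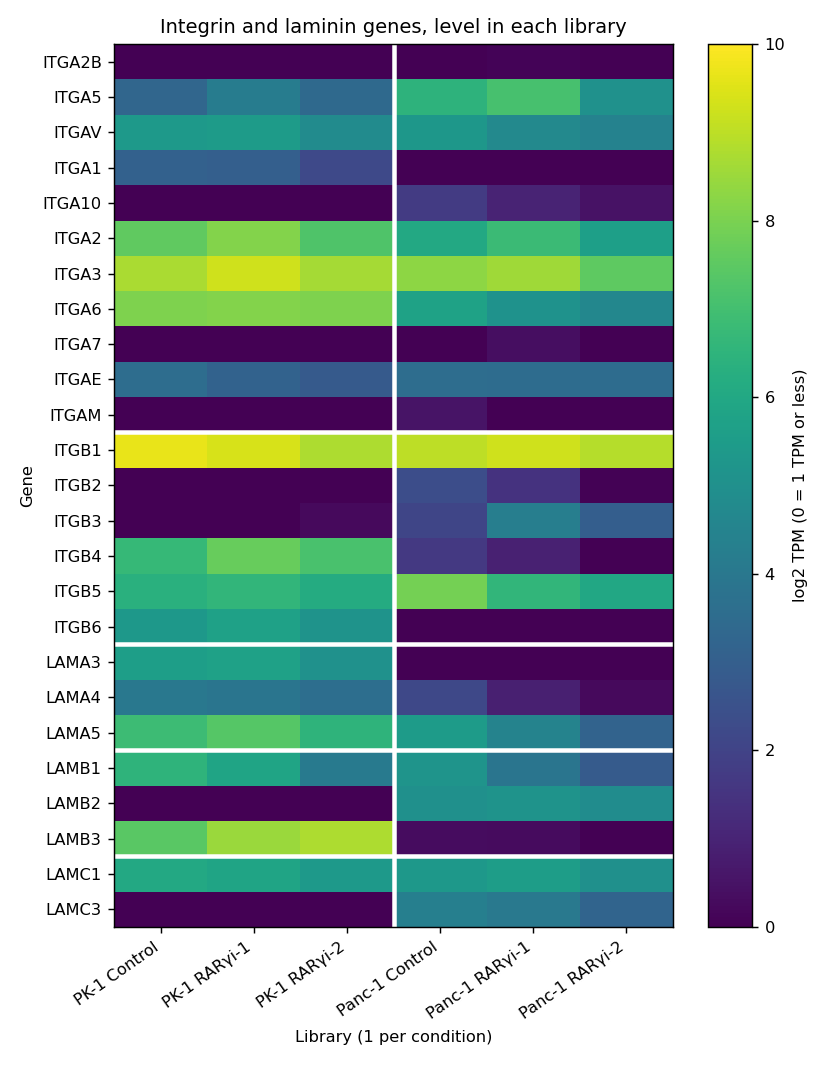
Level of 25 genes above the floor in at least 1 library, as log2 TPM (colour), in the 6 libraries (columns), with white lines between the families and between the cell lines. ITGB1 and ITGA3 are bright in all 6 libraries, whereas LAMA3 and ITGB6 are dark in Panc-1 and LAMB2 and LAMC3 are dark in PK-1.

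In the map of levels by library, the columns of a line resemble each other in which genes are on, and the largest contrasts are between the lines. The Control libraries were compared first, to ask which adhesion genes each line expresses without an inhibitor. PK-1 Control held LAMA3 and LAMB3 of the epithelial laminin and the hemidesmosome integrin, and Panc-1 Control held ITGA5, ITGB5, LAMB2 and LAMC3 at higher levels. Of 24 genes above the floor in either Control library, 7 were past 2-fold higher in Panc-1 (ITGA5, ITGA10, ITGB2, ITGB3, ITGB5, LAMB2 and LAMC3), which is 29.2%, against 15.7% of all 14618 entries. A further 11 were past 2-fold lower in Panc-1 (among them ITGA1, ITGA2, ITGA6, ITGB4, ITGB6, LAMA3, LAMA4, LAMA5, LAMB1 and LAMB3), which is 45.8%, against 14.6% of all entries. The median log2 fold change of Panc-1 Control over PK-1 Control was -0.67 for the 24 genes and 0.03 for all entries. By family it was -0.12 for integrin alpha, 0.37 for integrin beta and -1.34 for laminin genes. The integrin beta median has no firm sign, as it was -0.67 when only genes of at least 5 TPM in either Control were used, which kept ITGB2 and left out ITGB3.

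**Figure D2:**
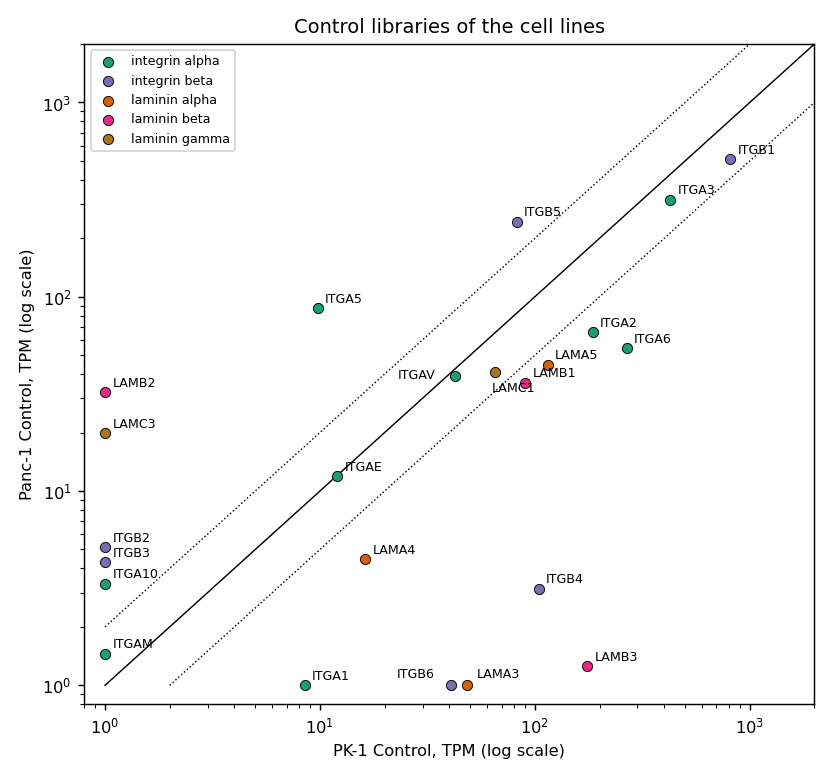
TPM in PK-1 Control (x axis, log scale) against TPM in Panc-1 Control (y axis, log scale) for 23 genes above the floor in either library, 1 point per gene, coloured by family. The solid line marks equal levels and the dotted lines a 2-fold difference in TPM; LAMB3, ITGB4, LAMA3 and ITGB6 lie far below it, and LAMB2, LAMC3 and ITGA5 lie above it, with points at 1 TPM standing for 1 TPM or less.

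The plot of the Control libraries shows ITGAE and ITGAV close to the line of equal levels, with log2 fold changes of -0.02 and -0.12. Whether the order of the lines held under treatment was then read from all 6 libraries. In 11 of the 26 genes above the floor all 3 PK-1 libraries lay above all 3 Panc-1 libraries (among them ITGA1, ITGA2, ITGA3, ITGA6, ITGB4, ITGB6, LAMA3, LAMA4, LAMA5 and LAMB3), while 22.0% of all 15654 entries had this order. The reverse order was seen in 6 genes (ITGA5, ITGA10, ITGB2, ITGB3, LAMB2 and LAMC3), while 23.7% of all entries had it. The 3 libraries of a line are different conditions and not replicates.

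Each treated library was next compared with the Control of its line, to ask what the inhibitors did to these genes. In PK-1, LAMB3 was past 2-fold higher with either inhibitor, and LAMB1 was past 2-fold lower with RARγi-2. Panc-1 with RARγi-1 had ITGB3 past 2-fold higher and ITGB5 and LAMB1 past 2-fold lower. Panc-1 with RARγi-2 had 9 genes past 2-fold lower (ITGA5, ITGA6, ITGB2, ITGB4, ITGB5, LAMA4, LAMA5, LAMB1 and LAMC3) and none higher. The comparisons of a line share its Control library, so that an error in a Control would move both.

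In PK-1 with RARγi-1, 1 of 18 genes was past 2-fold higher and 0 were lower, while 9.25% of all 13965 entries were higher and 4.96% lower. In PK-1 with RARγi-2, 1 of 19 genes was higher and 1 lower, while 12.1% of all 14028 entries were higher and 12.6% lower. In Panc-1 with RARγi-1, 1 of 23 genes was higher and 2 were lower, while 7.4% of all 14004 entries were higher and 6.03% lower. These counts in 3 of the 4 comparisons were thus small and not far from the background. In Panc-1 with RARγi-2, 0 of 21 genes were higher and 9 were lower, or 42.9%, while 8.5% of all 13921 entries were higher and 11.2% lower. In that library 20 of the 21 genes were below the Control, 15 of them by more than the spread of 0.32, and ITGB3 was the 1 gene above it. The matching shares over all entries were not counted, and the median log2 fold change of all entries was -0.03. The summed level of the keratins, EPCAM and CDH1 given above was also lower in this library, at 1484 TPM against 8418 TPM in its Control. That sum was 1783 TPM in Panc-1 with RARγi-1, where 2 of 23 genes were past 2-fold lower.

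The median log2 fold change of the genes was 0.16 in PK-1 with RARγi-1 (0.15 over all entries), -0.30 in PK-1 with RARγi-2 (0.03), -0.02 in Panc-1 with RARγi-1 (0.09) and -0.81 in Panc-1 with RARγi-2 (-0.03). In Panc-1 with RARγi-2 it was -0.79 for integrin alpha, -1.05 for integrin beta and -0.69 for laminin genes. The integrin beta value is that of ITGB4, which had reached the floor there and is a limit. No gene of the 38 passed 2-fold in the same direction in all 4 comparisons, against 2.15% of all entries higher and 1.74% lower. At a threshold of 1.5-fold there was 1 such gene, LAMB1, which was lower, and the share of all entries at this threshold was not counted.

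**Figure D3:**
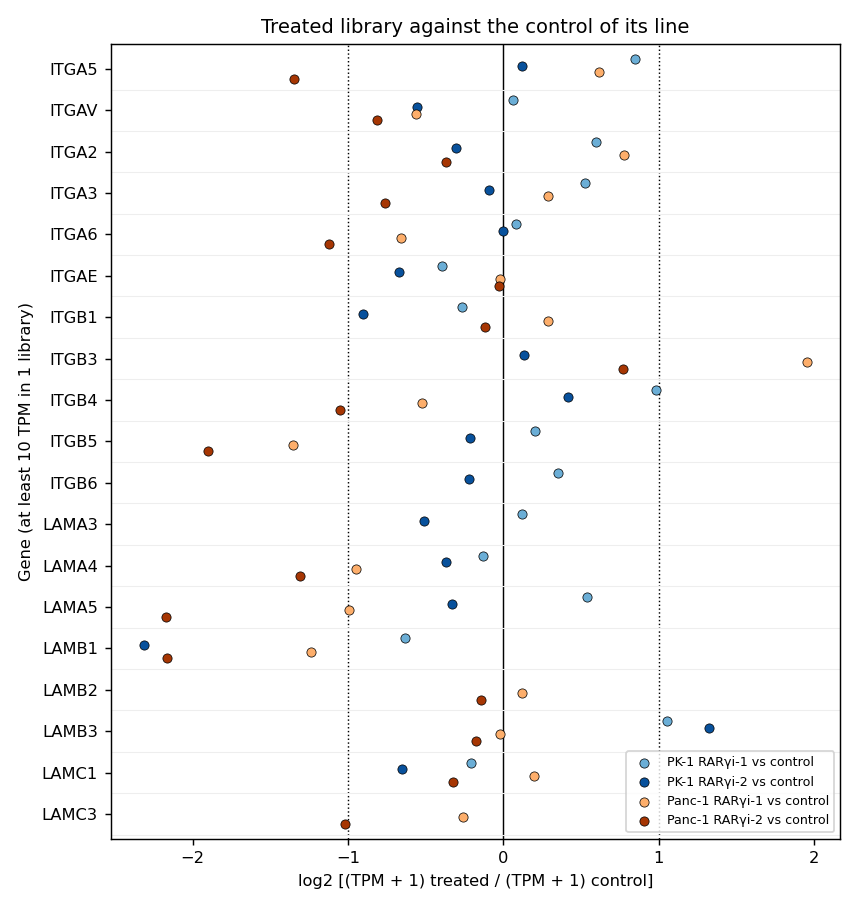
Log2 fold change of (TPM + 1) in each treated library over the Control of its line (x axis) for 19 genes that reached 10 TPM (rows), 1 point per comparison, with dotted lines at 2-fold; a comparison with both libraries at the floor has no point. The dark brown points of Panc-1 with RARγi-2 lie left of 0 except for ITGB3, and LAMB3 is past 2-fold to the right in both PK-1 comparisons.

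The plot of fold changes also shows ITGA2, ITGA3 and ITGA5 to the right of 0 with RARγi-1 in both lines, whereas LAMB1 lies left of 0 in all 4 comparisons. The genes are described one by one below, first the laminins as ligands and then the integrins as their receptors. Gene coordinates are those of RefSeq on GRCh38.p14, the assembly to which the hg38 of the submitters' processing notes belongs.

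The laminin beta chains went opposite ways in PK-1. LAMB3 (Entrez 3914, chr1:209614870-209652425), the beta chain of the epithelial laminin, was at 175 TPM in PK-1 Control, 364 TPM with RARγi-1 and 441 with RARγi-2. Both treated PK-1 libraries were above the Control, by 1.05 and 1.32 on the log2 scale, each more than the spread of 0.41. With the libraries rescaled by median ratios, which shifts PK-1 RARγi-1 against its Control by -0.11, the first of these values was 0.94 and no longer past 2-fold. In Panc-1 LAMB3 was at 1.26 TPM in the Control, 1.22 TPM with RARγi-1 and the floor with RARγi-2, that is, hardly expressed. LAMB1 (Entrez 3912, chr7:107923799-108003161), the beta chain of the widespread laminins, was at 90.2, 57.9 and 17.3 TPM in the Control, RARγi-1 and RARγi-2 libraries of PK-1, and at 36.0, 14.7 and 7.26 TPM in those of Panc-1. It was below the Control in all 4 treated libraries, with log2 fold changes of -0.63 (PK-1, RARγi-1), -2.32 (PK-1, RARγi-2), -1.24 (Panc-1, RARγi-1) and -2.16 (Panc-1, RARγi-2). LAMB1 overlaps DLD on the opposite strand in GENCODE 29, and whether the counting used strand is not given in the sources used here.

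The stretches upstream of a RefSeq start site of LAMB3 and of LAMB1 are shown, since these are the beta chains that diverged in PK-1. Both lie on the minus strand and are read from RefSeq on GRCh38.p14, without the bases nearest the start that other transcripts of the gene include in exons. The LAMB3 stretch (chr1:209651395-209651624) ends 21 bases before the start site and the LAMB1 stretch (chr7:108003256-108003411) ends 95 bases before it. Capitals mark the match to the AP-1 motif TGANTCA.
LAMB3: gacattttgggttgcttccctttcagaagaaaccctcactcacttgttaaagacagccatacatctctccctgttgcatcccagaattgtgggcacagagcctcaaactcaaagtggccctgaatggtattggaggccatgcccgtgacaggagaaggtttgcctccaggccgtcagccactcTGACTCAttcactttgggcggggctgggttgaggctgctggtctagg
LAMB1: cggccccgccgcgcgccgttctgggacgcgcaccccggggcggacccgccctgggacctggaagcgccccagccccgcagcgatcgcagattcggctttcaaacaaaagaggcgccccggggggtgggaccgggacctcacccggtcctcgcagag

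The AP-1 match in LAMB3 lies 67 bases before this start site, and the window of 250 bases upstream of the LAMB1 start has no match. LAMB3 has 3 start sites in RefSeq, and the 1 shown is the only one whose window has the match. The data do not show which start was used, so the contrast with LAMB1 depends on this choice of window. TGANTCA was searched on both strands in 33 windows of 250 bases, which belong to 26 of the 38 genes. The 2 windows with a match, of LAMA3 and LAMB3, are 6.06% of the 33, and 6.57% of all 35116 windows hold one. The GC box GGGCGG was found in 51.5% of the windows of these genes and 42.6% of all windows, LAMB1, LAMB2 and LAMB3 included. The nuclear receptor motif AGGTCA was found in 6.06% against 12.1%, those of ITGAV and LAMA2, and the related AGTTCA in 9.09% against 8.8%. For TGACG, the core of a cyclic AMP response element, the shares were 27.3% and 21.2%, and for the TEAD motif GGAATG they were 12.1% and 11.9%. The LAMB3 stretch contains TGACG on its other strand, 79 bases before the start site. Matches to TGACNNNGC can overlap those to TGACG. The remaining motifs searched were TGATGNAA (3.03% against 3.14%), TGACNNNGC (9.09% against 10.9%), TATAAA (6.06% against 10.7%), CAGCTG (15.2% against 14.0%), TTCCCGC (0.0% against 5.52%) and CCGGAA (15.2% against 14.5%). A match is only a run of letters and is no evidence of binding.

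LAMB2 (Entrez 3913), which takes the place of LAMB1 in some basement membranes, was at the floor in all 3 PK-1 libraries. In Panc-1 it was at 32.2 TPM in the Control, 35.1 TPM with RARγi-1 and 29.1 with RARγi-2, changes within the spread. The makeup of the laminin beta chains thus differed between the libraries of each line. In PK-1, LAMB3 made up 66.0% of the summed TPM of the laminin beta genes in the Control, 86.3% with RARγi-1 and 96.2% with RARγi-2, while LAMB1 made up 34.0%, 13.7% and 3.78%. There were 1.94 LAMB3 transcripts for each LAMB1 transcript in PK-1 Control, 6.29 with RARγi-1 and 25.4 with RARγi-2. In Panc-1 the share of LAMB1 was 51.8%, 28.8% and 19.9%, and that of LAMB2 was 46.4%, 68.8% and 80.1%.

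**Figure D4:**
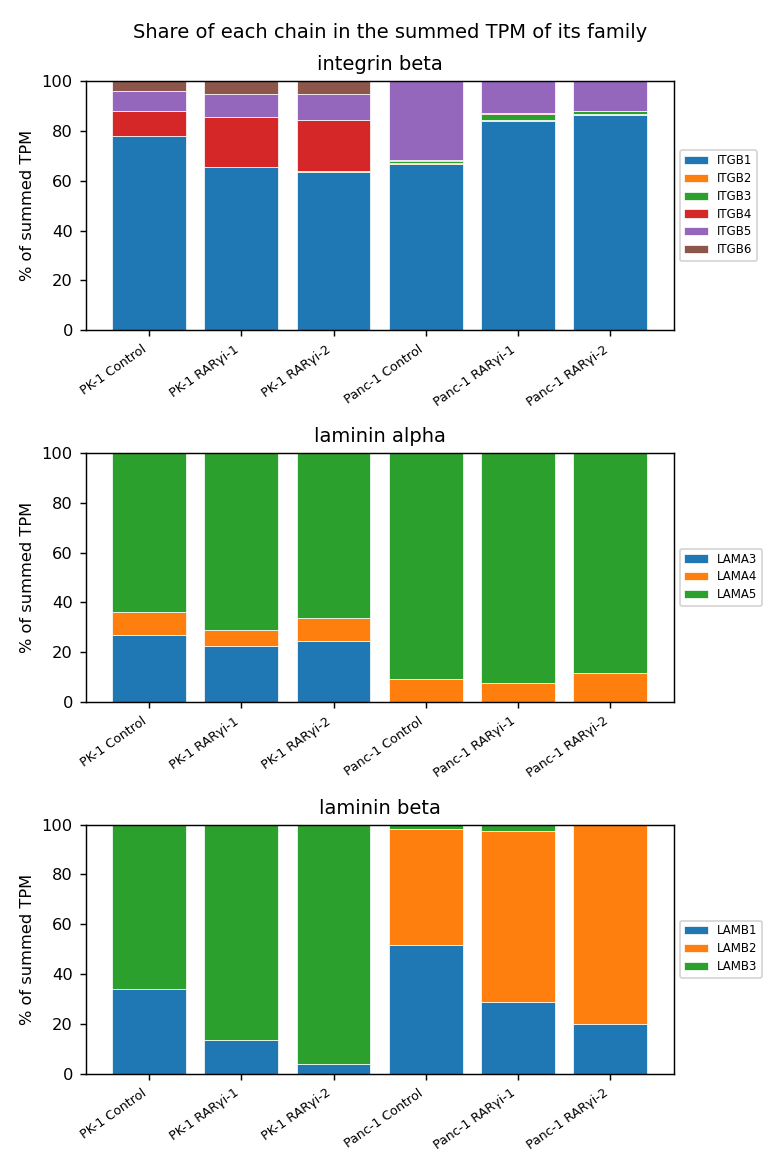
Share of each gene in the summed TPM of its family (y axis, percent) in the 6 libraries (x axis), for the integrin beta, laminin alpha and laminin beta genes; genes at the floor count as 0. In PK-1 the laminin beta bars pass from 66.0% to 96.2% LAMB3, and in Panc-1 LAMB2 takes up the share that LAMB1 leaves.

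The bars of family shares make plain that the laminin alpha chains kept their makeup more closely than the beta chains. LAMA5 (Entrez 3911, chr20:62309065-62367312), the widespread alpha chain, supplied 63.9%, 71.2% and 66.3% of laminin alpha TPM in PK-1, while in Panc-1 it supplied 90.9%, 92.3% and 88.3%. Its level was 115, 167 and 90.8 TPM in the Control, RARγi-1 and RARγi-2 libraries of PK-1. The Panc-1 level was 44.7 TPM in the Control, 21.9 TPM with RARγi-1 and 9.16 with RARγi-2. Both treated Panc-1 libraries were thus well below their Control, with log2 fold changes of -0.996, just short of 2-fold, and -2.17, while those of PK-1 lay on either side of theirs (0.54 and -0.33). LAMA5 overlaps ADRM1 on the opposite strand.

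LAMA3 (Entrez 3909), the alpha chain of the epithelial laminin, was at 48.5, 52.8 and 33.7 TPM in PK-1 and at the floor in Panc-1. Its fold change was 0.12 with RARγi-1, within the spread, and -0.51 with RARγi-2. LAMA4 (Entrez 3910), an alpha chain best known from vessels and muscle, was at 16.3, 14.8 and 12.4 TPM in PK-1 and at 4.47, 1.83 and 1.21 TPM in Panc-1. The changes of LAMA4 in PK-1 were within the spread, and those in Panc-1 were -0.95 and -1.31. LAMA4 and LAMA5 were past 2-fold lower in Panc-1 with RARγi-1 when no pseudocount was used, at -1.29 and -1.03.

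Among the gamma chains, LAMC1 of the widespread laminins was expressed in both lines. LAMC1 (Entrez 3915) was at 65.4, 56.5 and 41.3 TPM in PK-1 and 40.8, 46.8 and 32.3 TPM in Panc-1. LAMC3 (Entrez 10319), a gamma chain of restricted expression, was at the floor in PK-1 and at 19.8, 16.4 and 9.27 TPM in Panc-1, and its change with RARγi-2 was -1.02.

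LAMA3 and LAMB3 did not move in step in PK-1. LAMB3 was past 2-fold higher with either inhibitor, while LAMA3 stayed within 2-fold. There were 3.62 LAMB3 transcripts for each LAMA3 transcript in PK-1 Control, 6.90 with RARγi-1 and 13.1 with RARγi-2. The summed laminin beta level was 266 TPM in PK-1 Control, 422 TPM with RARγi-1 and 458 with RARγi-2. In Panc-1 it was 69.5, 51.0 and 36.4 TPM, and the summed laminin alpha level was 49.2, 23.8 and 10.4 TPM.

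ITGA3, a laminin-binding chain, was the most abundant integrin alpha gene in all 6 libraries. ITGA3 (Entrez 3675, chr17:50056110-50090481), which pairs with ITGB1, was at 427 TPM in PK-1 Control, 615 TPM with RARγi-1 and 401 with RARγi-2. In Panc-1 it was at 315 TPM in the Control, 385 TPM with RARγi-1 and 185 with RARγi-2. It was above the Control with RARγi-1 in PK-1 (0.52) and below it with RARγi-2 in Panc-1 (-0.76), and the other 2 changes were within the spread. ITGA3 made up 44.8% of the summed integrin alpha TPM in PK-1 Control and 54.5% in Panc-1 Control. ITGA6 (Entrez 3655, chr2:172427336-172506459), the partner of ITGB4 and ITGB1, stayed at 267, 283 and 267 TPM in PK-1, all within the spread. The Panc-1 libraries had 54.2, 34.0 and 24.4 TPM of ITGA6, both treated ones below the Control, with log2 fold changes of -0.66 and -1.12. ITGA7, the laminin receptor of muscle, was above the floor only in Panc-1 with RARγi-1, at 1.28 TPM, and overlaps BLOC1S1 on the opposite strand.

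ITGB4 (Entrez 3691, chr17:75721459-75757818), the beta chain of hemidesmosomes, was far higher in PK-1 than in Panc-1. It was at 104 TPM in PK-1 Control, 207 TPM with RARγi-1 and 139.9 with RARγi-2. Panc-1 had 3.14 TPM in the Control, 1.88 TPM with RARγi-1 and the floor with RARγi-2. Both treated PK-1 libraries were above their Control, by 0.98 and 0.42, the latter close to the spread, and both treated Panc-1 libraries were below theirs, at levels near the floor. The share of ITGB4 in the summed integrin beta TPM of PK-1 was 10.1% in the Control, 20.1% with RARγi-1 and 20.6% with RARγi-2. PK-1 Control had 2.56 ITGA6 transcripts for each ITGB4 transcript, against 1.37 with RARγi-1 and 1.91 with RARγi-2. ITGB4 overlaps GALK1 on the opposite strand.

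ITGB1 (Entrez 3688, chr10:32900318-32958230) was at 811, 674 and 433 TPM in the Control, RARγi-1 and RARγi-2 libraries of PK-1, and at 509.7, 623 and 468 TPM in those of Panc-1. Only the change in PK-1 with RARγi-2, of -0.91, was larger than the spread of its line. The share of ITGB1 in integrin beta TPM was 78.1%, 65.6% and 63.7% in PK-1, where ITGB4 took a larger part with the inhibitors. In Panc-1 the share of ITGB1 was 66.6%, 84.0% and 86.4%, where ITGB5 took a smaller one.

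The collagen receptors were led by ITGA2 (Entrez 3673), which pairs with ITGB1. ITGA2 was at 186 TPM in PK-1 Control, 282 TPM with RARγi-1 and 151 with RARγi-2, and at 65.5, 113 and 50.3 TPM in Panc-1. The RARγi-1 library was the highest of its line in both, with changes of 0.59 and 0.78, and the RARγi-2 library the lowest, with -0.30 and -0.37. ITGA1, another collagen receptor, was at 8.49, 8.10 and 4.65 TPM in PK-1 and at the floor in Panc-1. ITGA1 holds PELO on the same strand within its bounds, so that reads of PELO may be counted in it. ITGA10, a collagen receptor of cartilage, was at 3.33, 2.02 and 1.40 TPM in Panc-1 and at the floor in PK-1.

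The receptors for fibronectin, vitronectin and other ligands with an arginine-glycine-aspartate motif differed in Panc-1. ITGA5 (Entrez 3678, chr12:54395261-54419266), the alpha chain of the fibronectin receptor, was at 9.75 TPM in PK-1 Control, 18.3 TPM with RARγi-1 and 10.7 with RARγi-2. In Panc-1 it was at 87.4 TPM in the Control, 135 TPM with RARγi-1 and 33.7 with RARγi-2. The RARγi-1 library lay above the Control in both lines (0.84 and 0.62), and the RARγi-2 library lay past 2-fold below it in Panc-1 (-1.35) and within the spread in PK-1 (0.12). ITGAV (Entrez 3685), the common alpha chain of vitronectin receptors, was at 42.6, 44.5 and 28.6 TPM in PK-1 and 39.2, 26.2 and 21.8 TPM in Panc-1. Its change was within the spread in PK-1 with RARγi-1, and -0.56, -0.56 and -0.81 in the other 3 comparisons.

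The beta partners of ITGAV differed in direction. ITGB5 (Entrez 3693, chr3:124761948-124901418), a chain of a vitronectin receptor, was at 244 TPM in Panc-1 Control, 94.8 TPM with RARγi-1 and 64.4 with RARγi-2, past 2-fold lower with either inhibitor (-1.35 and -1.90). In PK-1 it was at 82.2, 94.7 and 70.8 TPM, within the spread. The Panc-1 Control library stood above all 5 others, and the treated Panc-1 libraries overlapped those of PK-1. ITGB3 (Entrez 3690, chr17:47253827-47313743), the chain of platelet and endothelial receptors, was at 4.29 TPM in Panc-1 Control, 19.5 TPM with RARγi-1 and 8.01 with RARγi-2, which is higher by 1.96 and 0.77 on the log2 scale. In PK-1 it was at the floor in 2 libraries and at 1.19 TPM with RARγi-2. ITGB3 overlaps the protein-coding AC068234.1 on the same strand, so its value may hold reads of that gene. ITGB6 (Entrez 3694), an epithelial chain whose receptor with ITGAV activates latent TGF-beta, was at 40.8, 52.2 and 34.9 TPM in PK-1, within the spread, and at the floor in Panc-1.

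The chains of leukocyte integrins were low. ITGB2, the common beta chain of leukocytes, was at 5.14, 2.79 and 1.03 TPM in Panc-1 and at the floor in PK-1. Its alpha partners ITGAL, ITGAX and ITGAD were at the floor throughout, and ITGAM was at 1.45 TPM in Panc-1 Control alone. ITGAE (Entrez 3682), the alpha chain of an E-cadherin receptor of T cells, was at 12.1, 8.95 and 7.21 TPM in PK-1 and at 11.9, 11.7 and 11.6 TPM in Panc-1, although its partner ITGB7 was at the floor. ITGAE overlaps HASPIN on the opposite strand. ITGA2B, the platelet alpha chain, was at 1.07 TPM in Panc-1 with RARγi-1 and at the floor elsewhere.

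To set the receptors and ligands beside the proteins they work with, 95 partner genes were followed in 7 lists. In PK-1 with RARγi-1, 6 of 74 partner genes above the floor (8.11%) were past 2-fold higher and 9 (12.2%) lower, while 9.25% of all entries were higher and 4.96% lower. In PK-1 with RARγi-2, 9 of 75 (12%) were higher and 22 (29.3%) lower, while 12.1% of all entries were higher and 12.6% lower. In Panc-1 with RARγi-1, 2 of 70 (2.86%) were higher and 21 (30.0%) lower, while 7.4% of all entries were higher and 6.03% lower. In Panc-1 with RARγi-2, 2 of 69 (2.9%) were higher and 32 (46.4%) lower, while 8.5% of all entries were higher and 11.2% lower. The median log2 fold change of the partner genes was 0.16, -0.19, -0.51 and -0.95 in these 4 comparisons. The shares of all entries given here are also the background for the counts by list below.

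**Figure D5:**
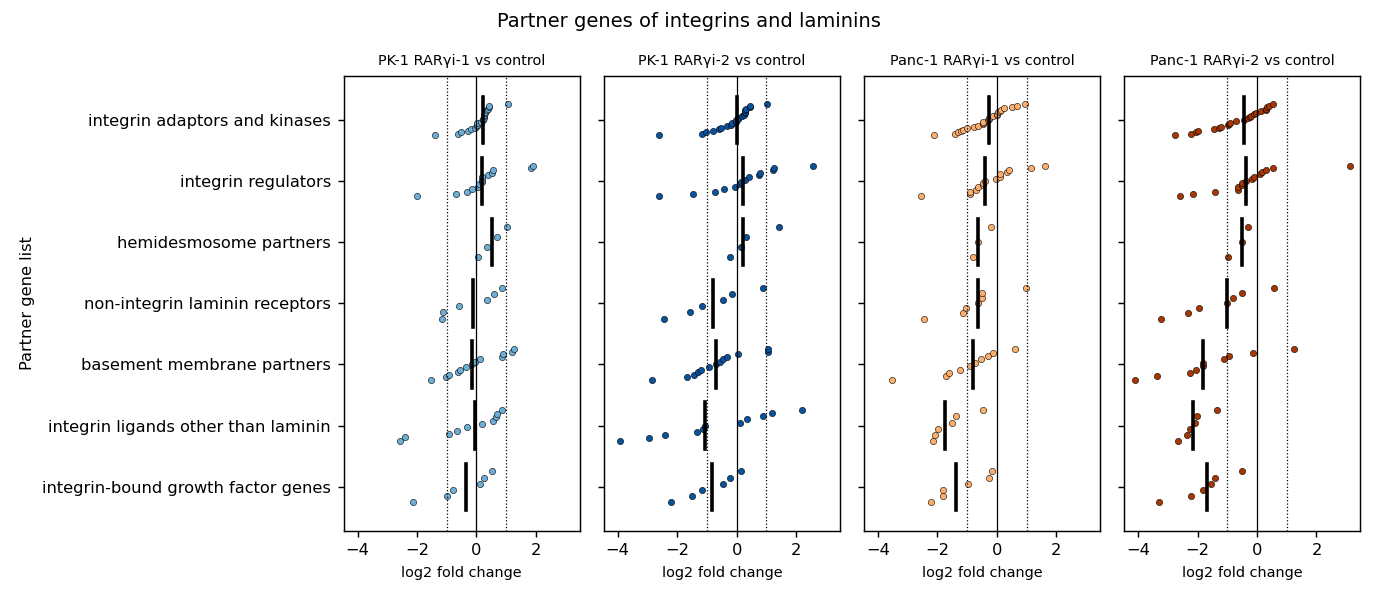
Log2 fold change of (TPM + 1) (x axis) for each partner gene above the floor in the comparison (points), by list (rows), in the 4 comparisons of a treated library with the Control of its line (panels); the heavy bars are medians and the dotted lines mark 2-fold. In Panc-1 with RARγi-2 all 6 integrin ligands other than laminin lie past 2-fold to the left.

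The panels of partner genes show the integrin ligands other than laminin furthest to the left by their median in 3 of the 4 comparisons. Of 13 basement membrane genes above the floor in PK-1, COL7A1 and NTN4 were past 2-fold higher with either inhibitor, and COL4A1 and COL4A2, which form the common type IV collagen, were past 2-fold lower with either. COL4A5 and COL4A6, other type IV chains named after their values were seen, were within 2-fold, at 33.0, 61.8 and 26.2 TPM and 33.1, 60.6 and 34.6 TPM in PK-1, and were above the Control with RARγi-1, by log2 fold changes of 0.89 and 0.85. With RARγi-2, NID1, HSPG2 and COL18A1 were lower as well. COL4A2 was at 21.9, 6.96 and 2.18 TPM in PK-1. NTN4, a netrin that binds laminin gamma chains, was at 17.1, 40.2 and 37.0 TPM in PK-1 and 2.44, 4.29 and 7.17 TPM in Panc-1, all 4 treated libraries being above their Control. In Panc-1, 4 of 10 genes of this list were past 2-fold lower with RARγi-1 and 7 with RARγi-2, both counts including HSPG2 (perlecan), COL7A1, COL18A1 and SPARC. HSPG2 was at 127, 38.1 and 11.3 TPM in Panc-1, and SPARC was at 160.4, 12.9 and 8.35 TPM there and at the floor in PK-1. COL7A1, the collagen of anchoring fibrils beneath hemidesmosomes, was at 7.69, 20.0 and 17.1 TPM in PK-1 and 24.3, 7.19 and 6.17 TPM in Panc-1, higher in the one line and lower in the other.

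Of the integrin ligands other than laminin, 2 of 10 were past 2-fold lower in PK-1 with RARγi-1, 6 of 11 with RARγi-2, 5 of 6 in Panc-1 with RARγi-1 and 6 of 6 with RARγi-2. SPP1 and CDH1 were past 2-fold higher in PK-1 with RARγi-2. TGFBI, a matrix protein that binds integrins, was at 651, 108 and 82.6 TPM in PK-1 and at 348, 88.2 and 66.7 TPM in Panc-1. THBS1 (thrombospondin) was at 270.1, 49.9 and 16.9 TPM in PK-1 and 16.3, 3.08 and 1.75 TPM in Panc-1. Both were past 2-fold lower in all 4 treated libraries. CYR61, CTGF and MFGE8, ligands of ITGAV integrins, were past 2-fold lower in both treated Panc-1 libraries, MFGE8 at 604, 231 and 239 TPM. In PK-1 MFGE8 was above the Control, at 58.6, 95.6 and 74.4 TPM (0.70 and 0.34, the latter within the spread). CYR61 and CTGF were past 2-fold lower there with RARγi-2 (-2.40 and -1.33) and within 2-fold with RARγi-1. CTGF was low in PK-1, at 4.03 TPM, 2.22 TPM and the floor, so its value with RARγi-2 is a limit. FN1 (fibronectin), the ligand of ITGA5 with ITGB1, was at 5.15, 2.22 and 1.92 TPM in PK-1 and at the floor in Panc-1, the line with more ITGA5. The list around growth factors held or activated by integrins had 6 genes above the floor, TGFB1, TGFB2, TGFB3, LTBP1, LTBP2 and LTBP3. Of these, 1 was past 2-fold lower in PK-1 with RARγi-1 and 3 with RARγi-2, and 3 were in Panc-1 with RARγi-1 and 5 with RARγi-2. TGFB1 was within 2-fold in all 4 comparisons. The Panc-1 counts include LTBP2, a protein of elastic fibres, at 87.6, 24.5 and 8.07 TPM there.

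Of the laminin receptors outside the integrin family, 2 of 6 were past 2-fold lower in PK-1 with RARγi-1 and 3 of 6 with RARγi-2, 3 of 7 were lower in Panc-1 with RARγi-1 and 4 of 7 with RARγi-2, and 0 were higher. BCAM, a receptor for LAMA5, was at 33.2 TPM in PK-1 Control, 14.3 TPM with RARγi-1 and 5.26 with RARγi-2, and at 36.9, 5.90 and 3.01 TPM in Panc-1. It was past 2-fold lower in all 4 treated libraries (-1.16, -2.45, -2.46 and -3.24). DAG1 (dystroglycan) was at 71.7, 32.2 and 23.3 TPM in PK-1 and 57.0, 36.1 and 27.5 TPM in Panc-1, past 2-fold lower in 3 of the 4. SDC2, a syndecan, was at 15.8, 6.59 and 3.33 TPM in Panc-1 and at the floor in PK-1.

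At the hemidesmosome, PLEC (plectin), which links ITGB4 to keratin filaments, was at 163 TPM in PK-1 Control, 336 TPM with RARγi-1 and 440.2 with RARγi-2, past 2-fold higher with either (1.04 and 1.43). With the libraries rescaled, the RARγi-1 value of PLEC was 0.94. In Panc-1 PLEC was at 123, 70.4 and 62.5 TPM, lower but within 2-fold. COL17A1, the hemidesmosome collagen, was at 188, 239 and 161 TPM in PK-1, within the spread, and at the floor in Panc-1 like LAMA3. CD151, the tetraspanin that binds ITGA3 and ITGA6, was at 286, 298 and 316 TPM in PK-1 and 904, 580.1 and 644 TPM in Panc-1.

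Inside the cell, the proteins that switch integrins on differed between the lines. TLN1 (talin) was at 27.9, 28.3 and 32.9 TPM in PK-1 and 114, 122 and 149.8 TPM in Panc-1. FERMT1, the epithelial kindlin, was at 85.0, 54.9 and 41.2 TPM in PK-1 and at or near the floor in Panc-1. Its PK-1 change was -0.62 with RARγi-1 and past 2-fold lower with RARγi-2 (-1.03, or -0.99 with rescaling). FERMT2, the kindlin of most other cells, was at 14.3, 30.7 and 30.2 TPM in PK-1, past 2-fold higher with either inhibitor (with RARγi-1 only without rescaling, which gave 0.95), and at 24.0, 39.0 and 35.6 TPM in Panc-1. The kinases downstream stayed within 2-fold of their Control, with PTK2 (focal adhesion kinase) between 61.3 and 87.4 TPM and ILK between 137 and 276 TPM over the 6 libraries. Of the adaptors and kinases, 1 of 22 was past 2-fold higher and 1 lower in PK-1 with RARγi-1, while 9.25% of all entries were higher and 4.96% lower. With RARγi-2, 1 of 22 was higher and 3 were lower, while 12.1% of all entries were higher and 12.6% lower. In Panc-1 0 of the adaptors and kinases were higher with either inhibitor, against 7.4% and 8.5% of all entries. There 5 of 24 were past 2-fold lower with RARγi-1 and 7 of 23 with RARγi-2, against 6.03% and 11.2% of all entries. VCL (vinculin), TNS2, TNS3 (tensins) and ACTN4 were lower in both. TNS3 was at 38.4, 13.8 and 5.43 TPM in PK-1 and 93.7, 20.9 and 12.8 TPM in Panc-1, past 2-fold lower in all 4 treated libraries, and ACTN4 was at 1808, 722 and 436 TPM in Panc-1.

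Among the regulators at the membrane, CAV1 (caveolin) was at 512, 127 and 83.8 TPM in PK-1 and 228, 38.4 and 36.9 TPM in Panc-1, past 2-fold lower in all 4. SLC3A2, the heavy chain of an amino acid transporter that also binds integrin beta tails, was at 635, 823 and 1509 TPM in PK-1 and 153, 469 and 1340.3 TPM in Panc-1. PLAUR, the urokinase receptor, was at 44.8, 169 and 107 TPM in PK-1 and 12.9, 29.9 and 13.9 TPM in Panc-1. RAP1GAP, which turns off the RAP1 that activates integrins, was at 7.42, 28.9 and 48.5 TPM in PK-1 and between 4.68 and 5.40 TPM in Panc-1. These 3 genes were past 2-fold higher in some treated libraries, SLC3A2 in all but PK-1 RARγi-1, PLAUR in all but Panc-1 RARγi-2, and RAP1GAP in PK-1 alone.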

How the data were processed

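RNA libraries of 6 cultures were analysed, 1 per condition. The authors isolated total RNA with Trizol, made stranded mRNA libraries and deposited log2 values of TPM, in which everything under 1 TPM had been raised to 1 TPM, as read from the values. The submitters' processing notes name hg38; the aligner, counting and annotation are not given in the sources used here. TPM was recovered from the deposited log2 values, and the log2 ratio of (TPM + 1) between libraries was taken in Python 3.11.15 with numpy 2.4.6 and pandas 2.3.3. An entry was used in a comparison where it was above the floor in either library. Each symbol of the families occurs in 1 entry. The computation recovered changes planted in simulated libraries, which were larger than the threshold and lay in entries well above the floor. That checks the arithmetic only, and tells nothing of replicate error or of values near the floor.

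Members, gene lists and thresholds were chosen with earlier results of these data known. Members of at least 10 TPM were given with their values, except 1 that is not reported here but stays in the counts and medians. Partner genes named with values had at least 10 TPM in 1 library and passed 2-fold the same way in all 4 comparisons or with both inhibitors in 1 line, at most 6 a list, plus TLN1, FERMT1, FERMT2, PTK2, ILK, CD151, PLEC, COL17A1, DAG1 and FN1. Partner genes named only within a count were named after their values were seen. Coordinates are from RefSeq (GRCh38.p14), where all 38 genes matched, and overlaps from GENCODE 29. Alternatives were pseudocounts of 0.1 TPM and none, rescaling by median ratios, a minimum of 5 TPM, and thresholds of 1.5-fold and 3-fold. Grouping followed the titles.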

Additional observations from a re-analysis of the deposited data

Results flagged for a closer look

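ITGB4 and LAMB3 drew attention because both treated PK-1 libraries were above their Control and both treated Panc-1 libraries were below theirs. The mean log2 fold change in PK-1 minus that in Panc-1 was 1.49 for ITGB4 and 1.29 for LAMB3. The difference between the lines was not tested. In Panc-1 both genes were near or at the floor, LAMB3 at 1.26 TPM or less and ITGB4 at 3.14 TPM or less, and the Panc-1 changes with RARγi-2, which reach the floor, are limits.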

How the results depend on the processing

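The labels give no replicate numbers that could pair libraries, and a fit with the cell line as a block, which would have 2 inhibitor and Control pairs per inhibitor, was not run. Rescaling by median ratios left 0 members past 2-fold higher in PK-1 with RARγi-1 (LAMB3, 0.94) and gave 4 lower in Panc-1 with RARγi-1. A pseudocount of 0.1 TPM, or none, also gave 4 lower there, and the integrin beta median in Panc-1 with RARγi-2 was then -1.56 or -1.65, because ITGB4 is at the floor. With at least 5 TPM, the integrin beta median of Panc-1 Control over PK-1 Control was -0.67, on fewer genes. At 1.5-fold, 5 members were higher and 1 lower in PK-1 with RARγi-1, and 1 was higher and 5 lower with RARγi-2. In Panc-1, 4 members were higher and 6 lower with RARγi-1, and 1 was higher and 12 lower with RARγi-2. In all 4 comparisons 1 member was lower. Partner genes at 1.5-fold were 13 higher and 17 lower in PK-1 with RARγi-1 and 13 higher and 27 lower with RARγi-2. In Panc-1 they were 6 higher and 33 lower with RARγi-1 and 2 higher and 41 lower with RARγi-2. At 3-fold, 0 members were higher in PK-1 with either inhibitor, 0 were lower with RARγi-1 and 1 was lower with RARγi-2. In Panc-1, 1 member was higher and 0 lower with RARγi-1, and 0 were higher and 4 lower with RARγi-2. Between the Control libraries, 4 members were higher and 8 lower in Panc-1 than in PK-1. Partner genes at 3-fold were 2 higher and 4 lower in PK-1 with RARγi-1 and 2 higher and 9 lower with RARγi-2. In Panc-1 they were 1 higher and 12 lower with RARγi-1 and 1 higher and 23 lower with RARγi-2. The share over all entries was counted at 2-fold in the main setting only. The counts under other settings therefore have no background beside them and show only how the calls depend on the setting. With rescaling, values near 0 changed sign, namely the integrin alpha medians with RARγi-1 (0.08 to -0.03 in PK-1, 0.01 to -0.05 in Panc-1), ITGAV in PK-1 with RARγi-1 and ITGA6 in both PK-1 comparisons, all within the spread; apart from these and the integrin beta median above, no median or named member changed sign. Depth and replicate error are unknown, so no value has an interval.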

Other observations

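Of the tetraspanins that bind integrins, CD81, chosen after its values were seen, was at the floor in all 3 PK-1 libraries and at 529, 381 and 337 TPM in the Control, RARγi-1 and RARγi-2 libraries of Panc-1. CD82, chosen in the same way, was at 148, 92.1 and 52.3 TPM in PK-1 and 61.9, 32.7 and 13.0 TPM in Panc-1, below the Control in all 4 treated libraries, with log2 fold changes from -0.68 to -2.17. CD63 was at 487, 695 and 834 TPM in PK-1 and 365, 485 and 526 TPM in Panc-1, above the Control in all 4. TNS4, an epithelial tensin, was at 225, 299 and 131 TPM in PK-1 and at the floor in Panc-1, and PARVB, a parvin that binds ILK, was at the floor in PK-1 and at 38.3, 54.7 and 47.0 TPM in Panc-1. These genes were also picked after their values had been seen.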
